A study of Homo sapiens with 4 samples.

Results

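H3K27ac at the MHC class II genes was compared between REH and 697, both B-cell precursor acute lymphoblastic leukemia (BCP-ALL) cell lines. The 7 genes are CIITA, CD74, HLA-DRA, HLA-DRB1, HLA-DQA1, HLA-DPA1 and HLA-DPB1, and they were chosen by name and not by a measured value. Earlier results of these data were known when they were chosen. For each gene the window was the gene body on hg19, given in whole kb, with 5 kb added on each side, and every peak that overlapped this window by at least 1 bp was taken. This gave 18 of the 44626 peaks called in REH and 14 of the 74504 peaks called in 697. Peaks are regions in which the authors' peak caller, MACS, found more ChIP fragments than expected from a local background estimated from input DNA. REH carries the ETV6/RUNX1 fusion and 697 does not. Both lines were cultured in RPMI medium with fetal bovine serum, without any treatment named in the labels, and each gave 1 H3K27ac library with 1 input library. No library was replicated, so no difference below has a replicate check or a test, and differences between the libraries and between the cell lines cannot be told apart. After duplicate removal 65241657 ChIP tags remained in REH and 68911420 in 697. The labelled cell type was not checked against lineage markers, because no hg19 annotation was used here.

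MHC class II molecules present peptides from the endocytic route to CD4+ T cells, and B-lineage cells are among the few cell types that carry them constitutively. Each molecule pairs an alpha with a beta chain (HLA-DRA with HLA-DRB1, HLA-DPA1 with HLA-DPB1, and HLA-DQA1 with a DQ beta chain). The invariant chain CD74 fills the groove during transport. CIITA is the transactivator on which transcription of the alpha and beta chain genes depends. It does not bind DNA itself, but is recruited by RFX, CREB and NF-Y proteins seated on the X and Y boxes upstream of each gene. H3K27ac marks active promoters and enhancers.

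The proximal promoters are shown because the peaks described below lie over or next to the 5′ ends of these genes. RefSeq promoter sequences on GRCh38.p14 were found for 5 of the 7 genes, and CIITA and HLA-DRA had no entry. The 200 bases that end directly before the transcript start are printed 5′ to 3′ along the gene. Capitals mark the letters ATTGG, the core of the Y box and of an inverted CCAAT box, and the letters AGNAACNG, which are part of the X box in some class II genes, on either strand. These letters were chosen after the sequences were seen, and the motifs do not overlap each other in any of these stretches. For HLA-DPA1 the start nearest to HLA-DPB1 was used.
CD74 (chr5:150412911-150413110, minus strand): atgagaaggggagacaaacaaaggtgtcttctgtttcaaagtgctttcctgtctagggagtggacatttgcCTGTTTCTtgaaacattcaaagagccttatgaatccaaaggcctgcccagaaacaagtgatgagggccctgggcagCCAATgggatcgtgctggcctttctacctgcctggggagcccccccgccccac
HLA-DRB1 (chr6:32589849-32590048, minus strand): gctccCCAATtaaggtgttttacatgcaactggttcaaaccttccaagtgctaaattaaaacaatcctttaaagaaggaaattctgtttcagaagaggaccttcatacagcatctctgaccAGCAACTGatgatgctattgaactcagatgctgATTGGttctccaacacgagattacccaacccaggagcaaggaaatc
HLA-DQA1 (chr6:32637206-32637405, plus strand): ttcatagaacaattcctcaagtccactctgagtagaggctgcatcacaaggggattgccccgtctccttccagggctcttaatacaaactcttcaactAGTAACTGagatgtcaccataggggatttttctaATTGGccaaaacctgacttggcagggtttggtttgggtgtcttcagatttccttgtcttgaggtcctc
HLA-DPA1 (chr6:33073650-33073849, minus strand): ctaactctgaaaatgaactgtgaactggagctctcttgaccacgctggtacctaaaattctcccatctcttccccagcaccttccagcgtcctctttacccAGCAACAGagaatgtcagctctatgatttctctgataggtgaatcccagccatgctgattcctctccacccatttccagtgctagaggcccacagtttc
HLA-DPB1 (chr6:33075790-33075989, plus strand): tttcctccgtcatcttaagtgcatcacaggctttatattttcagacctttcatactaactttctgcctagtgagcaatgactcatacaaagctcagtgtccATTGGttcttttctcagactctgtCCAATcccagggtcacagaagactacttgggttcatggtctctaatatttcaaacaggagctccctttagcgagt

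ATTGG or its complement was present in the shown stretch of CD74, HLA-DRB1, HLA-DQA1 and HLA-DPB1, and in 28.0% of the 35116 RefSeq promoters over the same length. AGNAACNG was matched in CD74, HLA-DRB1, HLA-DQA1 and HLA-DPA1, and in 10.3% of all promoters. Both were found in CD74, HLA-DRB1 and HLA-DQA1, against 2.93% of all promoters. Read along the gene, AGNAACNG was followed by ATTGG after 25 bases in HLA-DRB1 and after 26 bases in HLA-DQA1. Either spacing occurred in 12 of the 35116 promoters, of which 4 were those of class II genes (HLA-DRB1, HLA-DRB5, HLA-DQA1 and HLA-DOA). These spacings were read from HLA-DRB1 and HLA-DQA1 themselves, so both genes are among the 12 by construction, and the count is no test. In CD74 both matches lay on the opposite strand. A match of letters describes the sequence and shows no binding.

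All 7 genes had a called H3K27ac peak in both cell lines as deposited, and at a −log10(p) of at least 10 a peak remained at 3 genes in REH and 1 in 697. In the deposited lists a peak overlapped the window in 7 of 7 genes in REH and in 7 of 7 in 697, while a peak lay in 21.0% and 26.2% of all 20 kb tiles of the genome. These tiles are an unlike background, as they are not placed at genes and the windows are 16001 to 58001 bp wide. In REH the bases under peaks ranged from 483 bp at HLA-DQA1 to 37743 bp at CIITA, with a median of 5515 bp over the 7 windows. In 697 they ranged from 1743 bp at HLA-DQA1 to 20882 bp at CIITA, with a median of 3377 bp. Coverage was higher in REH at 6 of the 7 genes, with HLA-DQA1 as the exception. Among these 6, HLA-DPA1 and HLA-DPB1 share most of their covered bases. HLA-DRB1 had a ratio of only 1.07, and of 0.921 with no flank. By contrast, REH was higher in 36.4% of the 20 kb tiles with a peak in either line and in 39.8% of those with a peak in both. The lists as a whole lean toward 697, since the 697 peaks together covered 102 Mb and the REH peaks 67.9 Mb, a ratio of 1.49. A window was called different if one line lacked peaks there, or if its covered length was at least 2 times that in the other line. By this rule 2 of the 7 genes differed, HLA-DRA with more in REH and HLA-DQA1 with more in 697. Of the 20 kb tiles with a peak in either line 69.3% differed as much, 22.2% with more in REH and 47.1% with more in 697, and of those with a peak in both lines 40.0% did, 12% with more in REH and 28.0% with more in 697. As deposited, the share among the genes was thus not above the background. HLA-DRA lay just inside this rule with a ratio of 2.07, and CD74 just outside with 1.91. The count depended on the settings. It was 5 at a false discovery rate (FDR) of at most 5%, where 74.2% of the tiles differed, and 6 when coverage was divided by all bases under peaks in that line, an alternative added once the data had been seen, where 69.8% did. It was 3 with equal peak numbers (67.5% of tiles), 1 with peaks within 1000 bp merged (69.6%) and 1 with no flank. At a −log10(p) of at least 10 it was 2 of only 3 genes that kept a peak in either line, where 95.8% of the tiles with such a peak differed.

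**Figure D1:**
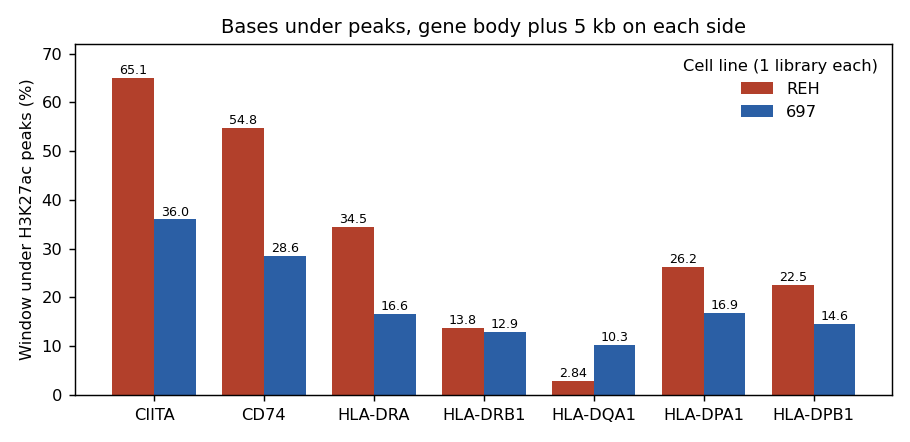
Percent of each gene window (gene body plus 5 kb on each side) under H3K27ac peaks, with 1 bar for REH and 1 for 697 and no error bars, since each line has 1 library. Bars run from 2.84% (HLA-DQA1, REH) to 65.1% (CIITA, REH), and the REH bar is the higher one at every gene but HLA-DQA1.

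CIITA, the transactivator (ENSG00000179583, plus strand), had the most extensive acetylation of the 7 genes. Its body was taken as chr16:10971000-11019000. In REH 65.1% of the window was under peaks and in 697 36.0%, that is 37743 bp against 20882 bp and a ratio of 1.81. The window held 9 REH peaks and 5 peaks of 697. In REH the 5′ end lay within a single domain of 20518 bp (chr16:10967477-10987994), which reached 3523 bp upstream and 16994 bp downstream of that end. It ranked 27 by length among all REH peaks and was longer than 99.9% of them. In 697 the same stretch held separate peaks of 4901 bp (chr16:10971409-10976309) and 8487 bp (chr16:10977729-10986215), the second of which was longer than 99.3% of the 697 peaks. The 5′ part of the gene was thus acetylated in both lines, as 1 unbroken domain in REH and as separate blocks in 697.

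Farther along CIITA, REH had peaks of 502, 2410, 1878 and 1179 bp, which started between 17935 and 26788 bp downstream of the 5′ end and had no 697 peak over them. A long peak in the 3′ part of the gene was found in both lines, with 7410 bp in REH (chr16:11002826-11010235) and 7253 bp in 697 (chr16:11004728-11011980). REH had another peak, of 2008 bp, directly downstream of its own, which the 697 peak reached as well. Beyond the 3′ end a REH peak of 2905 bp enclosed a 697 peak of 671 bp, with 1723 and 3 bp of them inside the window. The 697 peak of 7253 bp had a q-value above 0.05, and without it and the other peaks above that value the REH to 697 ratio at CIITA was 2.77. At a −log10(p) of at least 10 it was 1.21, with 10582 bp in REH and 8725 bp in 697. A further block lay upstream of the gene body, at the edge of the window, with 6300 bp in REH (chr16:10959815-10966114) and 6481 bp in 697 (chr16:10959757-10966237). Its starts differed by 58 bp and its ends by 123 bp between the lines, whereas the median over 24932 pairs of peaks that overlapped 1 to 1 was 290 bp for the starts and 288 bp for the ends. Only 115 bp of this block in REH and 238 bp in 697 fell inside the window. It began 11185 bp upstream of the 5′ end in REH. In GENCODE v44, on GRCh38, 9 of the 20 CIITA transcripts start within 150 bp of the canonical start, and the starts of 2 others lie 10942 and 10980 bp upstream of it. These starts were not placed on hg19, so the distances stand side by side without a match.

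CD74, the invariant chain (ENSG00000019582, minus strand), was covered over 54.8% of its window in REH and 28.6% in 697, or 12050 bp against 6294 bp and thus 1.91 times as much. Both lines had a long peak across the 5′ end, of 8241 bp in REH (chr5:149786705-149794945) and 5919 bp in 697 (chr5:149788937-149794855). The former exceeded 99.0% of its list in length and the latter 98.1%. The upstream edges of these peaks lay 90 bp apart, and the REH peak ran 2232 bp farther into the gene. CD74 is transcribed toward lower coordinates, so the shared edge is the one outside the gene. REH had 2 more peaks, of 3456 bp around the 3′ end (chr5:149778149-149781604) and of 353 bp upstream, and 697 had 1 more, of 375 bp within the 3′ part. None of these 3 peaks overlapped a peak of the other line.

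**Figure D2:**
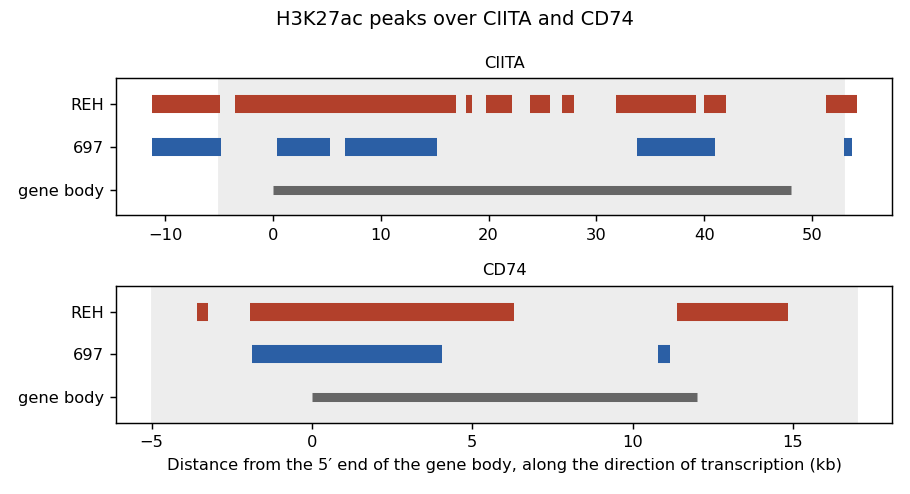
H3K27ac peaks (coloured bars) of REH and 697 over CIITA and CD74, with the gene body as a grey bar and the window shaded, on an axis of distance in kb from the 5′ end along the direction of transcription. The REH domain of 20518 bp over the 5′ part of CIITA faces separate 697 peaks of 4901 and 8487 bp, and at CD74 the peaks of both lines begin at nearly the same place upstream of the gene.

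HLA-DRA encodes the DR alpha chain, which hardly varies between people (ENSG00000204287, plus strand). It had 1 REH peak of 5515 bp (chr6:32404126-32409640) and 697 peaks of 1145 bp (chr6:32404815-32405959) and 1516 bp (chr6:32406909-32408424). The REH peak enclosed both 697 peaks. The covered lengths of 5515 and 2661 bp gave a ratio of 2.07, which was 1.53 when peaks within 1000 bp were merged and 3.64 at an FDR of at most 5%, where the shorter 697 peak was lost. The REH peak was longer than 97.4% of its list, and the longer 697 peak than 71.8% of its list.

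HLA-DRB1, the most variable of the DR beta genes (ENSG00000196126, minus strand), differed least between the lines in covered length as deposited. The peak over its 5′ end had 2519 bp in REH (chr6:32555820-32558338) and 2845 bp in 697 (chr6:32555633-32558477), with edges 187 and 139 bp apart. REH had a second peak of 518 bp at chr6:32559140-32559657, upstream of the gene, without a 697 counterpart. With it the covered lengths were 3037 and 2845 bp, a ratio of 1.07, and with no flank the ratio was 0.921, so that the direction depended on the flank. At a −log10(p) of at least 10 the REH peaks remained with 3037 bp and 0 bp were left in 697. In both lines the gene body beyond the 5′ part had no peak.

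HLA-DQA1, the DQ alpha chain (ENSG00000196735, plus strand), was the gene with fewer bases under peaks in REH. REH had a single peak of 483 bp (chr6:32605353-32605835) and 697 a single peak of 1743 bp (chr6:32605233-32606975). The starts were 120 bp apart, and the 697 peak ran 1140 bp farther into the gene. Coverage was 2.84% of the window in REH and 10.3% in 697, a REH to 697 ratio of 0.277. The ratio was 0.277 to 0.414 under the 6 alternatives that left peaks in both lines. At a −log10(p) of at least 10 the direction turned, since the REH peak of 483 bp remained and 0 bp were left in 697. The REH peak was short for its list, ranking 35684 by length among 44626, and the 697 peak exceeded 76.5% of the 697 peaks.

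HLA-DPA1 (ENSG00000231389, minus strand) and HLA-DPB1 (ENSG00000223865, plus strand) encode the DP alpha and beta chains and lie head to head. Their windows overlap, so their peaks near the shared 5′ region are the same peaks. In REH 1 peak of 5240 bp (chr6:33039505-33044744) spanned both 5′ ends. In 697 peaks of 1920 bp (chr6:33039466-33041385) and 1457 bp (chr6:33043034-33044490) flanked the space between the genes. In the deposited lists the outer edges nearly coincided, with the starts 39 bp and the ends 254 bp apart, so that the lines differed mainly in the middle. The 697 peak of 1457 bp had a q-value above 0.05. Without it the ends lay 3359 bp apart, so the lines then differed in extent as well. In RefSeq on GRCh38 the start of HLA-DPB1 lies 2341 bp from the HLA-DPA1 start whose promoter is printed above, and a second HLA-DPA1 start lies beyond that of HLA-DPB1. The covered lengths were 5240 and 3377 bp at HLA-DPA1 and 5620 and 3657 bp at HLA-DPB1, ratios of 1.55 and 1.54. At an FDR of at most 5% these ratios were 2.73 and 2.93. Near the 3′ end of HLA-DPB1 each line had 1 short peak, of 380 bp in REH and 280 bp in 697, which did not overlap.

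Every gene had a deposited H3K27ac peak near its 5′ end in both cell lines, and at a −log10(p) of at least 10 this held for 2 genes in REH and 0 in 697. A peak lay within 2 kb of the 5′ end in 7 of 7 genes in REH and in 7 of 7 in 697, while 7.47% and 11.2% of all 4 kb tiles held a peak. These tiles are not placed at gene starts, so other genes were not the background. The 5′ ends used are rounded to about 1 kb, as the bodies were given in whole kb. On GRCh38 other annotated starts lie farther off, for CIITA 10942 and 10980 bp upstream of the canonical start. HLA-DPA1 also has another start there, beyond that of HLA-DPB1. A peak spanned the 5′ end used here in 6 genes in REH and in 3 genes in 697 (CD74, HLA-DRA and HLA-DRB1). For HLA-DQA1 the nearest peak began 353 bp downstream in REH and 233 bp downstream in 697. At CIITA, HLA-DPA1 and HLA-DPB1 the nearest 697 peak was 409, 615 and 34 bp away, distances below the precision of these ends.

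**Figure D3:**
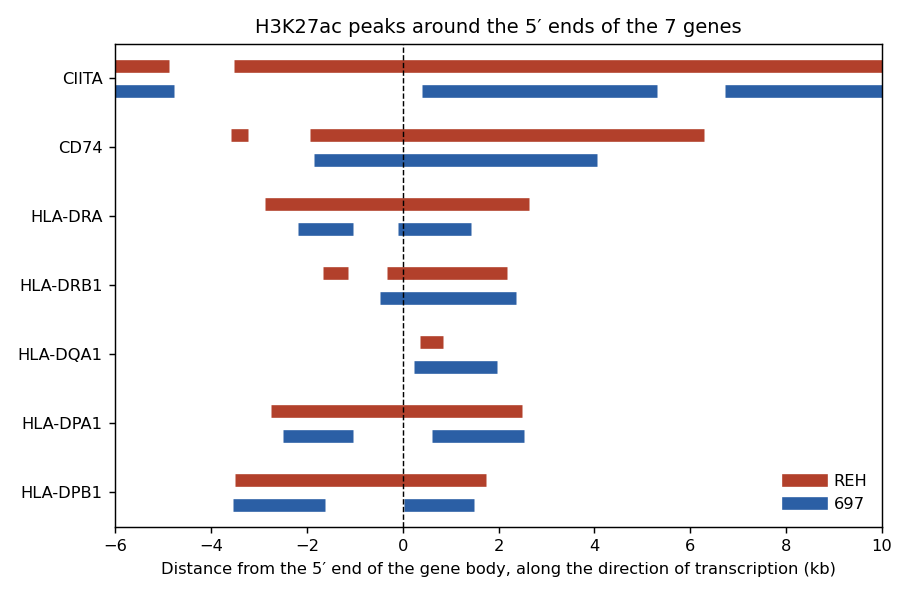
H3K27ac peaks of REH and 697 around the 5′ ends of the 7 genes, from 6 kb upstream to 10 kb downstream, with distances in kb along the direction of transcription. The dashed line is the 5′ end of the gene body used, rounded to about 1 kb. Single REH bars face separate 697 bars at CIITA, HLA-DRA, HLA-DPA1 and HLA-DPB1, the bars at the 5′ end of HLA-DRB1 nearly coincide (2519 bp in REH, 2845 bp in 697), and at HLA-DQA1 the 697 bar is the longer one (1743 against 483 bp).

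Most 697 peaks at these genes had a REH counterpart, and fewer REH peaks had one in 697. Of the 14 peaks of 697, 12 overlapped a REH peak, which is 85.7% (95% Wilson interval 60.1 to 96.0), while 38.9% of all 697 peaks did. Of the 18 REH peaks, 10 overlapped a 697 peak, or 55.6% (33.7 to 75.4), against 64.1% of all REH peaks. The intervals cover counting error only and treat the peaks of a gene as independent. In REH 1 and in 697 4 of these peaks had a q-value above 0.05, compared with 12.8% and 35.4% of the lists. Peaks at the genes were long for their lists, with a median of 2464 bp in REH and 1831 bp in 697, against 1060 and 871 bp over all peaks. Taking peaks by an overlap of 1 bp favours long ones, and each was counted at its full length, also where most of it lay outside the window.

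The HLA genes lie in 1 stretch of chromosome 6, which was examined from the HLA-DRA window to the HLA-DPB1 window (chr6:32402000-33063000, 661 kb). REH had 38 peaks over 12.3% of it and 697 had 29 peaks over 7.76%, a ratio of covered bases of 1.58. Of the tiles of this width with peaks in both lines, 17.2% had a ratio at least as high, REH was higher in 34.6%, and the median ratio over these 3413 tiles was 0.755. Its coverage was reached by 1.67% of all tiles of this width in REH and by 14.4% in 697, and these tiles are not placed at genes. Of the covered bases, 52666 of 81048 bp in REH and 33995 of 51326 bp in 697 lay between the HLA-DQA1 and HLA-DPA1 windows. Of the 29 peaks of 697, 26 overlapped a REH peak, or 89.7%, against 38.9% of all 697 peaks. These 29 had a median of 1450 bp and all 697 peaks one of 871 bp, so the background was not matched for length, nor for position. Of the 38 REH peaks, 23 overlapped a 697 peak, or 60.5%, close to the 64.1% of all REH peaks.

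Between HLA-DRB1 and HLA-DQA1, where RefSeq lists 0 protein-coding genes, REH had 5 peaks over 8692 bp and 697 had 3 peaks over 4160 bp, a ratio of 2.09. All 3 of the 697 peaks lay at REH peaks. The longest peaks of the lines lay at different places. That of REH had 3621 bp (chr6:32569533-32573153) and overlapped a 697 peak of 1392 bp. That of 697 had 2445 bp (chr6:32576962-32579406) and overlapped a REH peak of 1922 bp. The REH peaks of 1164 and 1421 bp nearest to HLA-DQA1 had no 697 counterpart. REH thus had more bases under peaks upstream of HLA-DQA1 and fewer in the window of the gene itself. Between HLA-DRA and HLA-DRB1, where HLA-DRB5 is the 1 protein-coding gene listed, 5035 bp were covered in REH against 2265 bp in 697 (ratio 2.22), and the 3 peaks found in REH alone measured 349, 285 and 195 bp. How reads that match several DR beta genes were placed is not given in the sources used here.

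Between HLA-DQA1 and HLA-DPA1 RefSeq orders 12 protein-coding genes, namely HLA-DQB1, HLA-DQA2, HLA-DQB2, HLA-DOB, TAP2, PSMB8, TAP1, PSMB9, HLA-DMB, HLA-DMA, BRD2 and HLA-DOA. They include the DM and DO genes, whose products govern peptide loading onto class II molecules, and the TAP and PSMB genes of the class I route. This stretch of 410 kb had 22 REH peaks over 52666 bp and 17 peaks of 697 over 33995 bp, a ratio of 1.55. The longest peak was found at the same place in both lines, with 6515 bp in REH (chr6:32934311-32940825) and 5772 bp in 697 (chr6:32934853-32940624). The longest REH peak without a 697 counterpart had 3454 bp (chr6:32911437-32914890), and the longest such peak of 697 had 1148 bp (chr6:32627056-32628203). Values for single genes of this stretch, and for RFX5, RFXANK, RFXAP, NFYA, NFYB, NFYC, CREB1, CTSS and IFI30, were not obtained, as no annotation of the build of the peaks was used here.

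**Figure D4:**
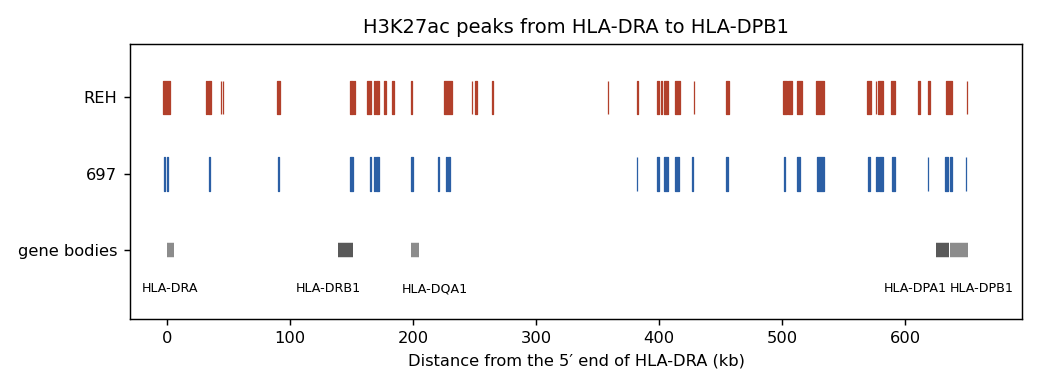
H3K27ac peaks of REH and 697 from HLA-DRA to HLA-DPB1, with gene bodies in grey, against the distance in kb from the 5′ end of HLA-DRA, where short peaks are drawn with a minimum line width. REH has 38 bars and 697 has 29. Of the 697 bars 26 lie at REH bars, or 89.7%, against 38.9% of all 697 peaks, a background not matched for peak length or position.

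The deposited lists also give a height for each peak. The mean pileup of ChIP fragments ranged from 11.06 to 74.71 over the 18 REH peaks and from 5.92 to 56.34 over the 14 peaks of 697. Over the 24932 pairs of peaks that overlapped 1 to 1 the Spearman correlation between the lines was 0.473 for length and 0.025 for pileup, a description across peaks of 2 libraries. Heights were therefore not compared between the lines. For −log10(p) the correlation was 0.027, so the values at the p-value cutoff carry the same limit. The q-value was not checked in this way, so the values at the FDR cutoff are no firmer.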

How the data were processed

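H3K27ac ChIP-seq peak lists of 1 REH and 1 697 library were analysed. Per the Methods and the processing notes, the authors mapped reads to hg19 with Bowtie or Bowtie2. The file headers name MACS 2.1.0.20150731 in broad mode against the input of the same line, with 1 tag kept per position and q-value cutoffs of 0.05 and 0.1, while the Methods name an earlier version. The deposited columns are position, mean pileup signal, fold enrichment as a ratio over background, and the −log10 of the p-value and of the q-value. Tag counts per peak and replicates were not at hand, so no test was made.

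Windows, genes and lists were chosen with earlier results of these data known. Only the 7 genes were to be named with values. Bodies on hg19 were given in whole kb, and the 5′ end was taken from the GENCODE v44 strand. Bases under peaks were summed within windows, and consecutive 20 kb tiles without chromosome Y served as background. Overlap functions were tested on simulated data. Alternatives were an FDR of at most 5%, a −log10(p) of at least 10, merging within 1000 bp, flanks of 0 and 10 kb, equal peak numbers by length, a 50% overlap, tiles of 10 and 50 kb, and, added after seeing the data, scaling by all bases under peaks. Peaks were handled with pandas 2.3.3 and numpy 2.4.6 in Python 3.11.15, Wilson intervals came from statsmodels 0.14.6, correlations from scipy 1.17.1 and plots from matplotlib 3.10.9.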

Additional observations from a re-analysis of the deposited data

How the results depend on the processing

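Of 53 alternative values for the main counts and percents, 35 lay within 1.5 times the reported count or within the 95% Wilson interval of the reported percent, and 18 did not. The 3 genes that differed with equal peak numbers by length were at that limit. At a −log10(p) of at least 10, a peak remained at 3 genes in REH and 1 in 697, within 2 kb of the 5′ end at 2 and 0 genes, over 1.89% and 0% of the class II interval, and 14.3% and 50% of the remaining peaks were shared. At an FDR of at most 5%, 5 genes differed at least 2 times, and peaks covered 12% of the interval in REH and 6.13% in 697. With peaks within 1000 bp merged, 1 gene differed and the covered percents were 12.8% and 8.18%. With no flank, 1 gene differed. With equal peak numbers by length, 7.51% of the interval was covered in 697 and 100% of the 697 peaks were shared. Scaled by all bases under peaks, 6 genes differed. The cause of these moves was not tested beyond the construction of each alternative.

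REH covered more bases than 697 at 6 genes under the FDR, merging, 10 kb flank, equal-number and scaling alternatives, at 5 with no flank, where HLA-DRB1 turned, and at 3 with the strict p-value, where 4 genes had no peak in either line and HLA-DQA1 turned, with 483 bp more in REH. The p-values used there had a Spearman correlation of 0.027 between the lines over overlapping peaks. In 10 and 50 kb tiles 72.3% and 64.3% differed at least 2 times. No paired analysis was possible because each cell line has 1 library. The number of libraries limits every comparison.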

Other observations

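Within the class II interval both lines shared a long stretch without H3K27ac peaks on the side of HLA-DQA1 toward HLA-DPA1. In REH the longest such stretch measured 93.7 kb (chr6:32671679-32765413), and in 697 it measured 152 kb (chr6:32637254-32788888) and enclosed that of REH. The median gap between neighbouring peaks of the interval was 9875 bp in REH and 12496 bp in 697. These stretches were singled out after the peaks were seen.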
